A study of Mus musculus with 9 samples.

Results

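The reactive gliosis genes comprised 8 of the 22337 genes in the expression table: Gfap, Vim, Nes, Lcn2, Serpina3n, S100a6, Cd44 and A2m. Each was found by its gene symbol, which stood in 1 row of the table. That rule used no measured value, but the list was chosen with earlier results of these data known. Gliosis is the response of glial cells to injury or disease. In the retina it is carried mainly by Müller glia, which span the whole tissue, hold its neurons in place and clear potassium and glutamate, and by the astrocytes of the nerve fibre layer. Reactive glia build up intermediate filaments, in the retina classically GFAP, and turn on secreted acute-phase proteins and surface receptors, often through cytokines of the IL-6 family and the transcription factor STAT3.

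RNA-seq was performed on retinas of mice at postnatal day 28 (P28), in 3 groups of 3 libraries. WT retinas came from C57 mice (C57BL/6J) that were not treated. NS-treated and MSC-EVs-treated retinas came from rd10 mice, which carry the rd10 mutation of Pde6b, a subunit of the rod phosphodiesterase, and lose their rods and later their cones. Littermates received either normal saline (NS) or extracellular vesicles of human umbilical cord mesenchymal stem cells (MSC-EVs), 1 μL in both eyes at P14 and again at P21. The study names the vitreous as the route, although its account of the treatment has the word intravenously. WT mice had another supplier than rd10 mice and no injection, so genotype, source and injection cannot be told apart in any comparison with WT. Neither the sex of the animals nor the number of animals per library is labelled, so p-values measure the spread between libraries, which may be technical.

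The estimated counts summed to between 19491717 and 62532343 per library, with the most in MSC-EVs replicate 3. Expression is given as CPM, counts scaled to library size with edgeR's TMM factors, where levels are compared between libraries, and as FPKM, which also divides by transcript length, where they are compared between genes. Gnat1, which encodes the transducin subunit of rods, had 15430 ± 775 CPM (SD, n = 3) in the WT group, 3535 ± 548 in the NS group and 3547 ± 780 in the MSC-EVs group. Müller glia markers, also 8 genes, summed to 4361 to 4648, 5132 to 6076 and 4326 to 4724 CPM. Loss of one cell type raises the share of RNA from the others, and in whole retina a change in the number of cells of a type cannot be told apart from a change in RNA per cell. The Y-linked genes had 4379 and 4421 counts in MSC-EVs replicates 1 and 2 and 7 to 23 in the other 7 libraries, MSC-EVs replicate 3 included, so the make-up of the MSC-EVs group differed from that of NS in this respect.

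All 8 reactive gliosis genes were more abundant in retinas of NS-treated rd10 mice than of WT mice, and so were all 8 in those of MSC-EVs-treated rd10 mice. The rises ran from 2.34-fold for Nes to 40.7-fold for Lcn2 in NS-treated rd10. Between the rd10 groups the differences were far smaller. Cd44 was 1.54-fold higher with MSC-EVs and passed the test, and the other 7 genes did not, with Gfap, Nes, Serpina3n and A2m higher in every MSC-EVs library than in any NS library. Groups were compared in pairs, 6 libraries at a time, by the quasi-likelihood test of edgeR over all genes tested. A gene passed when its p, adjusted by the method of Benjamini and Hochberg, was under 0.05, and was called differentially expressed when its absolute log2 fold change was also at least 1. By these rules 31.2% of the 14644 genes tested in NS-treated rd10 against WT passed as higher and 9.16% were differentially expressed and higher, and in MSC-EVs-treated rd10 against WT the shares of 14623 genes were 28.3% and 9%. In MSC-EVs-treated against NS-treated rd10, 0.914% of 14765 genes passed as higher and 0.0542% were differentially expressed and higher, and for 12.8% every MSC-EVs library lay above every NS library.

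**Figure D1:**
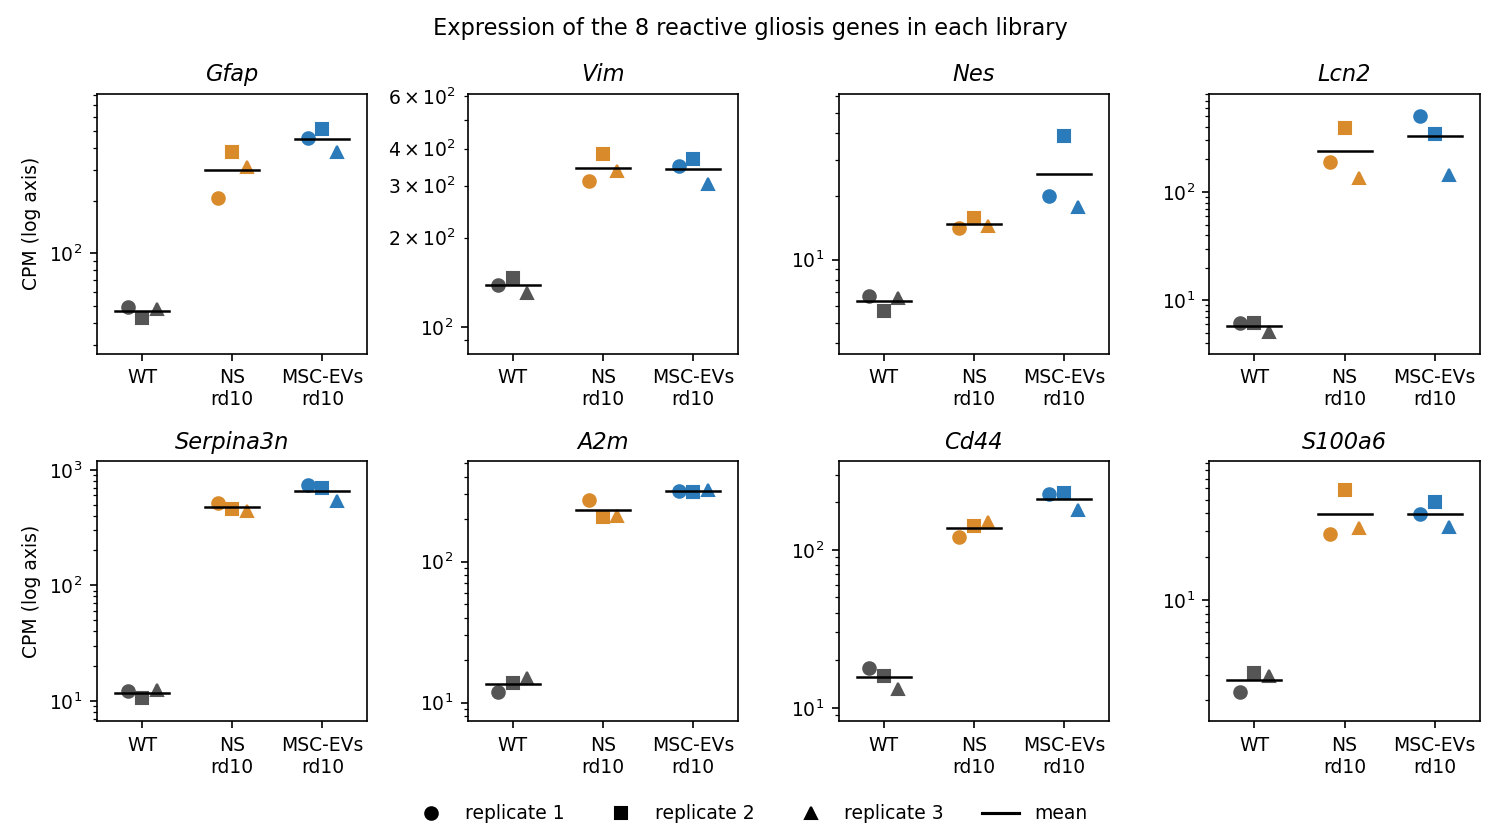
CPM (log axis, with its own range for each gene) of the 8 reactive gliosis genes in the WT, NS and MSC-EVs groups, with 1 symbol per library, its shape giving the replicate number, and a line at the mean of 3 libraries. In each panel the 6 rd10 libraries lie above the 3 WT libraries, and MSC-EVs replicate 3 is the lowest of its group for every gene but A2m.

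Gfap encodes glial fibrillary acidic protein, the intermediate filament by which reactive glia are usually recognized. It lies on chromosome 11 from 102887336 to 102900912 on the minus strand (GRCm38, GENCODE M21), where a long noncoding gene of the other strand overlaps its introns but none of its exons. WT libraries had 49.7, 42.8 and 48.3 CPM, NS-treated libraries 206, 381 and 311 CPM, and MSC-EVs-treated libraries 458, 512 and 381 CPM. The NS and MSC-EVs libraries came close to overlapping, with 380.7 CPM in the highest NS library, replicate 2, and 381.28 CPM in the lowest MSC-EVs library, replicate 3. Gfap rose 6.35-fold in NS-treated rd10 against WT, a log2 change of 2.67 with a standard error of 0.26 (edgeR adjusted p = 0.000532). With MSC-EVs its log2 fold change against NS was 0.60, with a 95% interval from -0.02 to 1.21 (edgeR adjusted p = 0.257), an interval that holds both 0 and a rise of more than 2-fold.

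The stretch before the RefSeq start of Gfap is printed because, of the 7 reactive gliosis genes with a RefSeq promoter, it was the one that held the STAT-type motif TTCNNNGAA, shown in capitals. Windows of 300 bases, 250 before and 50 after the start, were searched on both strands. The motif began at base 249 of the window and ran across the start, which is base 251. Of all 32851 promoters, 8.3% held it, and a match of letters is not a binding site. No factor was measured here. The printed bases lie at chr11:102897194-102897450 on the minus strand of GRCm38.p6, 5′ to 3′, and A2m had no entry.
Gfap: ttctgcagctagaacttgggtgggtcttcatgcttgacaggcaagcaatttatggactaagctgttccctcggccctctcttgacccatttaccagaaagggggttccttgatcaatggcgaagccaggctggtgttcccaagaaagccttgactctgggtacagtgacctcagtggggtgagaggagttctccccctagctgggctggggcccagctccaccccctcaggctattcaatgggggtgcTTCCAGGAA

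Vim encodes vimentin, which Müller glia hold also at rest, and Nes encodes nestin, a filament protein of neural progenitors and of reactive glia. Vim had 139, 146 and 130 CPM in WT, 311, 383 and 337 CPM in NS-treated rd10 and 350, 369 and 303 CPM in MSC-EVs-treated rd10. The rd10 groups overlapped, with an MSC-EVs library below every NS library. Vim rose 2.48-fold in NS-treated rd10 against WT, a log2 change of 1.31 with a standard error of 0.08 (edgeR adjusted p = 5.48e-08). Between MSC-EVs and NS it was -0.01, with a 95% interval from -0.22 to 0.21 (edgeR adjusted p = 0.976). Vim is on chromosome 2 from 13573927 to 13582826, plus strand.

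Nes, on chromosome 3 from 87971078 to 87980451 on the plus strand, was the least abundant of the 8 genes per length, with 0.953 FPKM in WT. It had 6.69, 5.69 and 6.56 CPM in WT, 14.1, 15.7 and 14.5 CPM in NS-treated rd10 and 19.99, 38.7 and 17.7 CPM in MSC-EVs-treated rd10. One MSC-EVs library, replicate 2, stood far above the other MSC-EVs libraries. Nes rose by 1.23 on the log2 scale in NS-treated rd10 against WT (standard error 0.11, edgeR adjusted p = 1.95e-06). Against NS the log2 fold change with MSC-EVs was 0.78, with a 95% interval from 0.02 to 1.54 before any adjustment for the number of genes and an edgeR adjusted p of 0.234. It was 0.36 without MSC-EVs replicate 2 and 0.27 with Y-linked expression as a covariate. Nearly all Y-linked counts lay in MSC-EVs replicates 1 and 2, so that covariate leaves in effect MSC-EVs replicate 3 against NS.

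The 3 filament genes therefore did not change in proportion. Gfap took 22.6%, 19.2% and 23.1% of their summed FPKM in WT, 35%, 44.8% and 42.9% in NS-treated rd10 and 51.5%, 52.5% and 50.5% in MSC-EVs-treated rd10. Vim exceeded Gfap in all WT and NS libraries, and Gfap exceeded Vim in all 3 MSC-EVs libraries. Gfap FPKM per Vim FPKM was 0.281 ± 0.0348 (SD, n = 3) in WT, 0.711 ± 0.144 in NS-treated rd10 and 1.09 ± 0.0529 in MSC-EVs-treated rd10. In this ratio the 3 groups lay apart from each other. A two-sided exact permutation test gave p = 0.1 in each of the 3 comparisons, which is the smallest value that 3 libraries against 3 allow. A ratio within a library shows unequal change and not which gene changed.

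**Figure D2:**
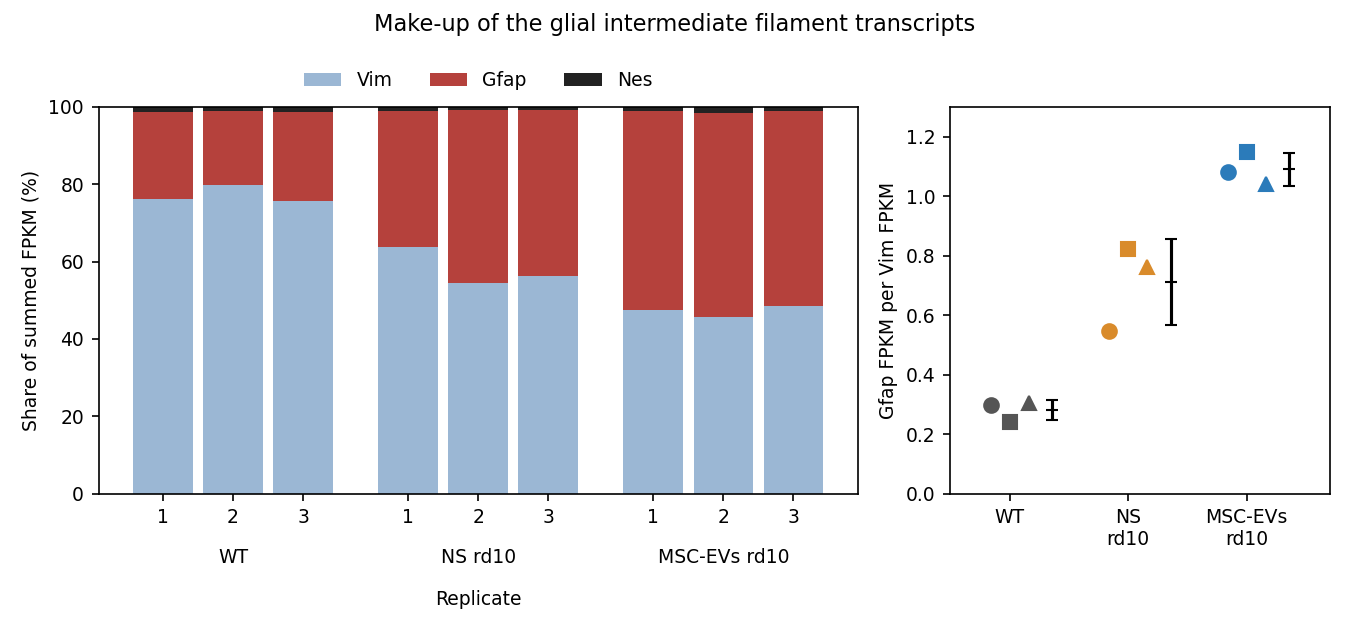
Left, share (%) of the summed FPKM of Vim, Gfap and Nes taken by each gene, with 1 bar per library. Right, Gfap FPKM per Vim FPKM, with 1 symbol per library (circle, square and triangle for replicates 1, 2 and 3) and the mean ± SD beside them; the ratio is 0.241 to 0.305 in WT, 0.548 to 0.822 in NS-treated rd10 and 1.04 to 1.15 in MSC-EVs-treated rd10.

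The list of other intermediate filament genes held 7, among them Synm, Des, Prph, Ina, Nefm and Nefh. In NS-treated rd10 against WT, 5 of the 7 passed as higher and none as lower, with a median log2 fold change of 0.30. Prph, which encodes the neuronal filament peripherin, had the largest of them, 2.06 (edgeR adjusted p = 0.000182), which was above the values of Vim and Nes. Of the 5 that passed, Des lost its call in 6 of 14 alternative fits and Synm in 1 of 16. With DESeq2, 5 passed as well, with Nefh in place of Des. None of the 7 passed between the rd10 groups with edgeR or DESeq2, and 1 had an unadjusted edgeR p under 0.05.

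Lcn2, Serpina3n and A2m encode secreted proteins. Lcn2 encodes lipocalin 2, an acute-phase protein that binds bacterial iron carriers. It had 6.15, 6.13 and 5.16 CPM in WT, 190, 390 and 135 CPM in NS-treated rd10 and 508, 343 and 143 CPM in MSC-EVs-treated rd10. Libraries of each rd10 group spread widely, with a coefficient of variation of 56.3% with NS and 55.1% with MSC-EVs, and the groups overlapped. Lcn2 rose 40.7-fold in NS-treated rd10 against WT, a log2 change of 5.35 with the widest error of the 8 genes (standard error 0.61, edgeR adjusted p = 0.00194). Between MSC-EVs and NS the log2 fold change was 0.48, with a 95% interval from -1.12 to 2.08 (edgeR adjusted p = 0.724), an interval that spans a fall and a rise by more than 2-fold.

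The 250 bases before the RefSeq start of Lcn2 are printed for the same reason as those of Gfap: among the 7 promoters they alone held the C/EBP-type motif TTGCNNAA, shown in capitals and starting at base 35 of the window. Of all promoters, 10.8% held this motif. The AP-1-type motif TGANTCA, found in 7.81% of all promoters, was in none of the 7 windows, which says only that these letters are not there. The sequence lies at chr2:32387740-32387989 on the minus strand of GRCm38.p6, 5′ to 3′. The gene itself lies on chromosome 2 from 32384633 to 32388252.
Lcn2: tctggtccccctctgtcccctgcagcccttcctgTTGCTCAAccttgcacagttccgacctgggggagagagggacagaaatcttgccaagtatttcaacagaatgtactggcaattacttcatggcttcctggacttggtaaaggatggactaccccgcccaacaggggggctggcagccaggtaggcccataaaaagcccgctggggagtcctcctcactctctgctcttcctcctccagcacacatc

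Serpina3n encodes a secreted inhibitor of serine proteases, a mouse relative of human alpha-1-antichymotrypsin, and lies on chromosome 12 from 104406729 to 104414329 on the plus strand. WT libraries had 12.1, 10.7 and 12.4 CPM, NS-treated libraries 515, 459 and 441 CPM, and MSC-EVs-treated libraries 744, 692 and 534 CPM. No library of one group overlapped those of another. Serpina3n rose 40.2-fold in NS-treated rd10 against WT, a log2 change of 5.33 with a standard error of 0.09 (edgeR adjusted p = 2.77e-12), and no other of the 14644 genes tested had a smaller p. With MSC-EVs the log2 fold change against NS was 0.48, with a 95% interval from 0.21 to 0.76 and an edgeR adjusted p of 0.0882.

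A2m encodes alpha-2-macroglobulin, which traps proteases of many kinds, and lies on chromosome 6 from 121635376 to 121679227 on the plus strand. It had 11.8, 13.7 and 14.9 CPM in WT, 273, 207 and 212 CPM in NS-treated rd10 and 315, 313 and 323 CPM in MSC-EVs-treated rd10. The MSC-EVs libraries differed little among themselves, with a coefficient of variation of 1.6%, and all lay above the NS libraries. A2m rose 17.2-fold in NS-treated rd10 against WT, a log2 change of 4.10 with a standard error of 0.14 (edgeR adjusted p = 2.42e-08). Against NS its log2 fold change with MSC-EVs was 0.46, with a 95% interval from 0.23 to 0.69 and an edgeR adjusted p of 0.0634.

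Reads of Serpina3n could in part belong to a copy: 6.9% of the stretches of 50 bases in its annotated transcripts also occur in another gene, chiefly the pseudogene Serpina3e-ps, whereas the other 7 reactive gliosis genes share none. The listed relatives had low levels, with sums of 0.808 to 1.03 CPM in WT. They summed to 3.3 to 6.03 CPM in NS-treated and 4.51 to 13.4 CPM in MSC-EVs-treated rd10. Of 12 listed relatives of Serpina3n and A2m, 11 were in the table and 1, Serpina3g, was tested between WT and NS-treated rd10. Serpina3g rose from counts of 15, 19 and 16 (WT) to 80, 65 and 60 (NS), a log2 change of 1.88 (edgeR adjusted p = 3.73e-05). In MSC-EVs-treated rd10 against WT, 2 were tested, Serpina3g and Serpina3i, and both passed as higher. Between the rd10 groups 3 were tested and none passed with edgeR or DESeq2, with an unadjusted edgeR p under 0.05 in 1.

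Cd44 encodes the receptor for hyaluronan on the cell surface, and lies on chromosome 2 from 102811141 to 102901665 on the minus strand, where a small nuclear RNA gene of the other strand overlaps an intron. WT libraries had 17.9, 15.8 and 13.2 CPM, NS-treated libraries 121, 142 and 151 CPM, and MSC-EVs-treated libraries 226, 229 and 179 CPM. All MSC-EVs libraries lay above all NS libraries, with replicate 3 the nearest to them. Cd44 rose 8.76-fold in NS-treated rd10 against WT, a log2 change of 3.13 with a standard error of 0.11 (edgeR adjusted p = 8.56e-09). With MSC-EVs it rose by a further 0.62 on the log2 scale against NS (standard error 0.11, 95% interval from 0.36 to 0.88, edgeR adjusted p = 0.046). The adjusted p was 0.0685, 0.153 and 0.163 without NS replicate 1, 2 or 3, and 0.195 without MSC-EVs replicate 1, while the log2 change stayed between 0.53 and 0.72 whichever library was left out. With Y-linked expression as a covariate in the fit, which leaves in effect MSC-EVs replicate 3 against NS, the log2 change was 0.39.

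S100a6 encodes calcyclin, a small calcium-binding protein of reactive astrocytes and many dividing cells, and lies on chromosome 3 from 90612882 to 90624181 on the plus strand. It had 2.29, 3.09 and 2.95 CPM in WT, 28.6, 57.9 and 31.5 CPM in NS-treated rd10 and 39.4, 48.0 and 32.3 CPM in MSC-EVs-treated rd10. The highest of all 9 libraries was an NS library, replicate 2, and the rd10 groups overlapped. S100a6 rose 14.1-fold in NS-treated rd10 against WT, a log2 change of 3.81 with a standard error of 0.38 (edgeR adjusted p = 0.000357). Between MSC-EVs and NS it was 0.02, with a 95% interval from -0.77 to 0.81 (edgeR adjusted p = 0.981). Of its 8 listed S100 relatives, 7 were tested between WT and NS-treated rd10 and all 7 passed as higher, among them S100a3, with 0, 1 and 3 counts in WT and 15, 13 and 16 with NS, S100a4 with a log2 change of 2.32, S100a11 with 2.22 and S100a16 with 1.62. Between the rd10 groups 7 were tested and none passed with edgeR or DESeq2, with an unadjusted edgeR p under 0.05 in 1.

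In NS-treated rd10 against WT, 8 of the 8 genes were differentially expressed. The libraries of both groups lay apart for all 8, as they did, with NS higher, for 33.7% of all genes. The median log2 fold change of the 8 genes was 3.47, and that of all genes was 0.01. In MSC-EVs-treated rd10 against WT, 8 of 8 were again differentially expressed and lay apart, where 31.9% of all genes lay apart with MSC-EVs higher. A2m, with a log2 change of 4.57 and a standard error of 0.08 (edgeR adjusted p = 9.31e-10), had the smallest p of all genes there. The log2 fold changes of the others in that comparison were 3.27 for Gfap, 1.31 for Vim, 2.01 for Nes, 5.83 for Lcn2, 5.82 for Serpina3n, 3.85 for S100a6 and 3.76 for Cd44. With Y-linked expression as a covariate that of Lcn2 was 4.64 and that of Nes 1.501. With MSC-EVs replicate 3 alone they were 4.62 and 1.497. Nearly all Y-linked counts lay in MSC-EVs replicates 1 and 2, so both fits rest in effect on MSC-EVs replicate 3 and are not separate checks. Both comparisons with WT share the WT libraries.

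In MSC-EVs-treated against NS-treated rd10, 1 of the 8 genes passed. None was differentially expressed by edgeR and none by the Wald test of DESeq2, with which 4 passed as higher, as did 4.73% of the 13332 genes to which DESeq2 gave an adjusted p. With no adjustment, 4 of the 8, namely Nes, Serpina3n, Cd44 and A2m, were higher with an edgeR p under 0.05, beside 11.6% of all genes. All 3 MSC-EVs libraries lay above all 3 NS libraries for 5 of the 8 genes. The median log2 fold change of the 8 genes was 0.48, and that of all genes was -0.0016. MSC-EVs replicate 3, which lacked the Y-linked counts of the other MSC-EVs libraries and was the deepest, was the lowest MSC-EVs library for 7 of the 8 genes. With that library alone against the 3 NS libraries none of the 8 passed, and the log2 fold change of Lcn2 was -0.72; the lone library is assumed to vary like the others.

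**Figure D3:**
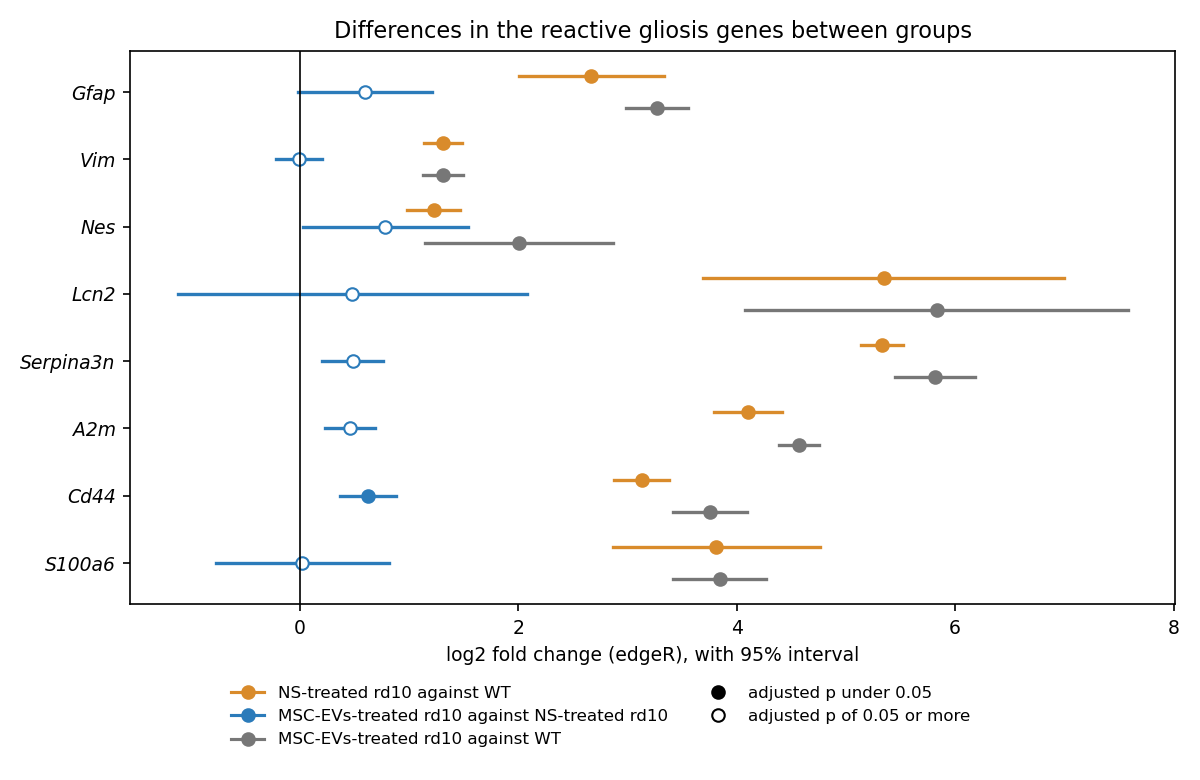
Log2 fold change of each reactive gliosis gene (x axis) with its 95% interval in the 3 comparisons, as fitted by edgeR, with filled symbols for an adjusted p under 0.05. The NS-treated against WT values run from 1.23 to 5.35, all filled, and the MSC-EVs-treated against NS-treated values from -0.01 to 0.78, of which the symbol of Cd44 is filled.

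Per transcript length, the order of the 8 genes changed. In WT, Vim led with 58.6 ± 3.74 FPKM (SD, n = 3), followed by Gfap with 16.4 ± 1.18, and the other 6 lay between 0.953 and 5.89 FPKM. In NS-treated rd10, Lcn2 came first with 272 ± 153 FPKM and Serpina3n second with 239 ± 17.7, ahead of Vim with 164 ± 18.1 and Gfap with 118 ± 35.2. Lcn2 and Serpina3n, Vim and Gfap, Gfap and S100a6, and S100a6 and A2m were neighbours whose ranges over the NS libraries overlapped. With MSC-EVs the means were 375 ± 208 FPKM for Lcn2, 329 ± 56.1 for Serpina3n, 176 ± 26.3 for Gfap and 161 ± 16.8 for Vim, so Gfap stood before Vim. Nes was last in every group.

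Set against Müller glia marker counts, which themselves were higher in NS-treated rd10, the genes also stood higher in rd10. Gfap had 9.2 to 11.1 counts per 1000 Müller glia marker counts in WT, 33.9 to 74.2 in NS-treated rd10 and 85.2 to 118 in MSC-EVs-treated rd10. Vim had 29.8 to 31.3, 51.2 to 74.7 and 67.6 to 85.4. On this scale the rd10 groups did not overlap for Gfap and did for Vim. The marker Glul made up most of these marker counts in WT, and its mean CPM was lower with MSC-EVs. The scale therefore rests largely on Glul and is not a measure per Müller cell. When edgeR's libraries were scaled to these counts, all 8 genes still passed against WT in NS-treated rd10 and 6 were differentially expressed. Between the rd10 groups 3 of the 8, Serpina3n, Cd44 and A2m, passed. The share of all genes that passed was not counted under this scaling, so these calls cannot be read as particular to the 8 genes. That scaling moved the median log2 fold change of all genes to -0.32 in NS-treated rd10 against WT and to 0.33 in MSC-EVs-treated against NS-treated rd10, and Vim, at -0.01 otherwise, to 0.32 in the latter.

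Of the 8 Müller glia markers, 7 passed as higher in NS-treated rd10 against WT, with a median log2 fold change of 0.75. Sox9, a transcription factor of glia, rose by 1.90 (edgeR adjusted p = 6.71e-09) and Aqp4, the water channel of glial endfeet, by 1.02 (edgeR adjusted p = 1.15e-07). Glul, the glutamine synthetase that disposes of glutamate, had 2733 ± 108 CPM (SD, n = 3) in WT and 2682 ± 517 in NS-treated rd10 and did not pass. With MSC-EVs 1 of the 8 passed against NS, Car14, a carbonic anhydrase, which fell by 0.51 (edgeR adjusted p = 0.032), and the median was -0.17. Of all 14765 genes tested there, 37 passed as lower. In MSC-EVs-treated rd10 against WT, 3980 of 14623 genes passed as lower. Glul had 1900 ± 202 CPM with MSC-EVs, 0.52 lower than WT on the log2 scale (edgeR adjusted p = 0.000364), and its log2 fold change against NS was -0.49 (edgeR adjusted p = 0.14). Of 4 markers of retinal astrocytes, 3 passed as higher in NS-treated rd10 and none in either direction between the rd10 groups with edgeR or DESeq2, where 1 had an unadjusted edgeR p under 0.05.

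The other genes that reactive astrocytes are known to turn on were higher in NS-treated rd10 too. Of 8 further genes shared by several forms of astrocyte reactivity, 7 were tested and 7 passed, among them Timp1, an inhibitor of matrix proteases, for which WT libraries gave 2, 13 and 3 counts and NS libraries 410, 420 and 202. Steap4, a metal reductase, rose by 4.33, Cxcl10, a chemokine, by 4.30 and Osmr, the oncostatin M receptor, by 2.92 on the log2 scale. All 11 genes of the neuroinflammatory (A1) list passed as higher, led by Serping1, the inhibitor of complement C1, with 4.12, Iigp1 with 3.91, Gbp2 with 3.58 and Psmb8 with 3.10, which are induced by interferons. Of 12 genes of the ischaemic (A2) list, 11 passed as higher. Of these, Slc10a6, a transporter of sulfated steroids, had 4, 1 and 2 counts in WT and 63, 58 and 69 with NS, and Tgm1, a transglutaminase, had 3, 4 and 2 in WT and 70, 62 and 70 with NS. Next in size were Cd14, a co-receptor for bacterial lipopolysaccharide, with 3.23 and Clcf1, a cytokine of the IL-6 family, with 2.73. The medians of these lists were 2.92, 2.5 and 2.58, beside 3.47 for the 8 reactive gliosis genes.

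Signals that act on glia, as ligands, receptors and their targets, made up a list of 16 genes, of which 13 were tested. In NS-treated rd10 against WT, 11 passed as higher and 1, the receptor Lifr, as lower, by 0.51 (edgeR adjusted p = 2.69e-05). Of all 14644 genes tested in that comparison, 4410 passed as lower. Among the ligands, Lif, an IL-6 family cytokine known in the injured retina, rose by 4.10 and Edn2, endothelin 2, by 2.32. Fgf2, a growth factor known to protect photoreceptors, rose by 2.08. Downstream, Stat3, the transcription factor, rose by 1.70 and Socs3, its feedback inhibitor, by 4.18, the largest of the list (edgeR adjusted p = 2.69e-10).

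Between the rd10 groups, the genes of these lists that passed were few. Osmr had 81.3 ± 9.85 CPM (SD, n = 3) in the NS group and 140 ± 9.91 in the MSC-EVs group, higher by 0.79 on the log2 scale (edgeR adjusted p = 0.0156), and S1pr3, a receptor for sphingosine 1-phosphate, rose by 0.60 (edgeR adjusted p = 0.0353), which makes 2 of the 8 shared genes. Steap4, with 0.96, did not pass (edgeR adjusted p = 0.233). On the signalling list 3 of 13 passed: Fgf2, with 214 ± 31.1 CPM in the NS and 421 ± 43.9 in the MSC-EVs group, rose by 0.98 (edgeR adjusted p = 0.0209), Il6st, the shared receptor subunit of the IL-6 family, rose by 0.68 (edgeR adjusted p = 0.015) and Stat3, named after its value was seen, by 0.54 (edgeR adjusted p = 0.0252). The ligands Lif and Clcf1 had log2 fold changes of -0.57 and -0.84, and neither passed. On the A2 list 1 of 12 passed, Cd109, a surface protein that binds TGF-beta, with 1.33 (edgeR adjusted p = 0.0401), and Tgm1, with 1.37, did not (edgeR adjusted p = 0.13). None of the 11 A1 genes passed with edgeR or DESeq2, and 1 had an unadjusted edgeR p under 0.05. DESeq2 passed 5 of the 13 signalling genes and 2 of the 12 A2 genes, Tgm1 and Cd109. It also passed 3 of the 8 Müller glia markers, Glul, Rlbp1 and Car14, all lower with MSC-EVs. When NS replicate 3 or MSC-EVs replicate 1 was left out, none of Osmr, S1pr3, Fgf2, Il6st, Stat3, Cd109 and Car14 passed. Of the 6 fits with 1 library left out, Osmr, Fgf2, Il6st and Stat3 each passed in 4. S1pr3 and Car14 each passed in 2 of them, and Cd109 in 1. With any 1 library left out, the lowest log2 fold change was 0.74 for Osmr, 0.49 for S1pr3, 0.91 for Fgf2, 0.63 for Il6st, 0.47 for Stat3 and 1.198 for Cd109, and Car14 lay between -0.59 and -0.43.

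**Figure D4:**
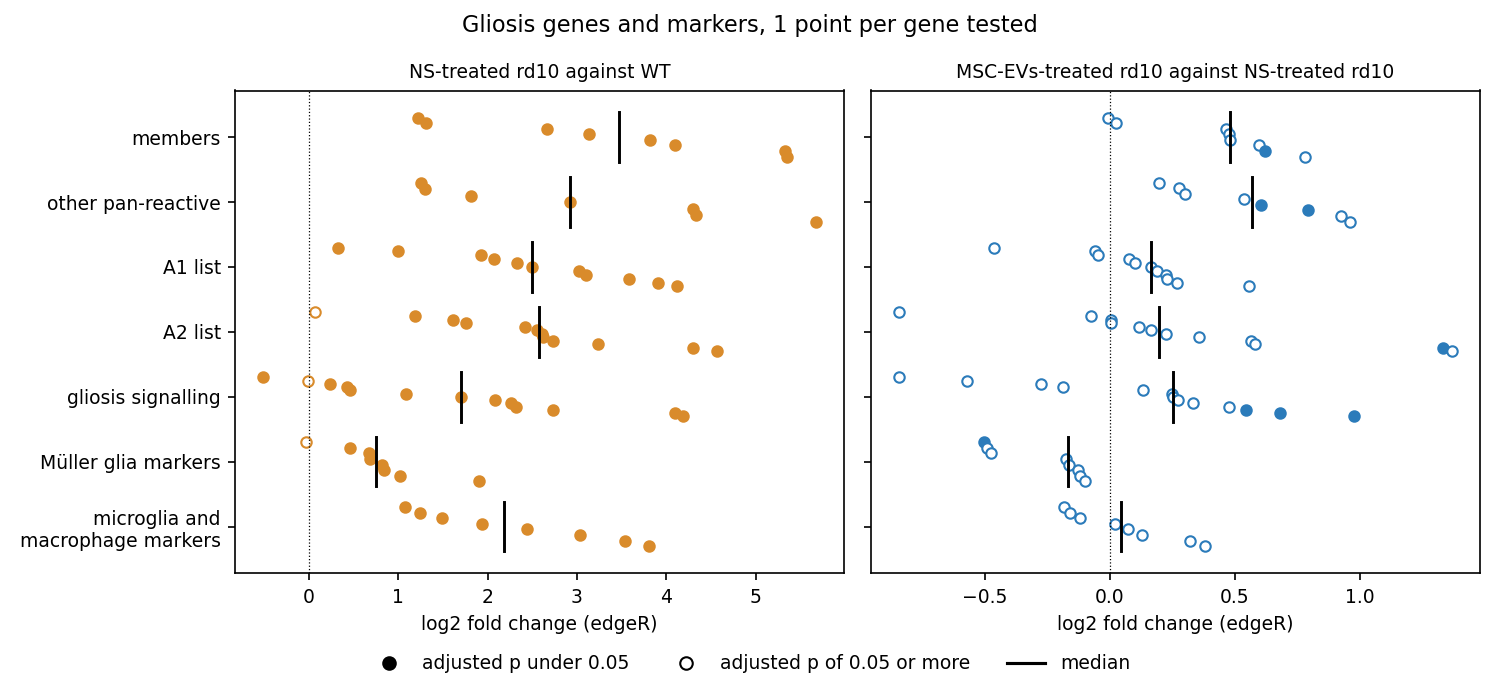
Log2 fold change (x axis, with a separate range in each panel) of the genes tested among the reactive gliosis genes (members) and in 6 of the other lists, with 1 point per gene, filled where the adjusted p was under 0.05, and a line at the median. In NS-treated rd10 against WT the medians of the lists plotted run from 0.75 for Müller glia markers to 3.47 for the reactive gliosis genes; in MSC-EVs-treated against NS-treated rd10 they run from -0.17 for Müller glia markers to 0.57 for the other genes shared by forms of astrocyte reactivity.

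Markers of other cells that can express some of these genes moved as well. Microglia and macrophages hold Cd44, and neutrophils hold Lcn2. All 8 microglia and macrophage markers passed as higher in NS-treated rd10 against WT, with a sum of 67.6 to 71.0 CPM in WT, 297 to 359 in NS-treated and 248 to 422 in MSC-EVs-treated rd10, and none of the 8 passed between the rd10 groups with edgeR or DESeq2, or had an unadjusted edgeR p under 0.05. Of 10 monocyte and neutrophil markers, 3 were tested in NS-treated rd10 against WT and passed as higher, and the whole list summed to 0 to 0.134 CPM in WT, 4.4 to 13.9 in NS-treated and 2.49 to 14.3 in MSC-EVs-treated rd10. These 3 were Ccr2, Ly6c2 and Plac8. The listed neutrophil genes S100a8, S100a9, Mpo, Camp, Ngp, Ltf and Elane had too few counts to be tested there or in MSC-EVs-treated rd10 against WT. Ngp, Ltf and Elane had no count in any WT or NS library. Fibroblast markers, 5 genes, summed to 7.99 to 9.22, 19.8 to 30.4 and 16.9 to 31.0 CPM, and 6 endothelial and pericyte markers to 300 to 315, 518 to 527 and 459 to 559 CPM. Of tissues next to the retina, 2 of 6 retinal pigment epithelium markers and none of 7 lens markers passed as higher in NS-treated rd10 with edgeR, and no cornea or conjunctiva marker had counts enough to be tested. The part of these cells in the levels of the reactive gliosis genes was not tested.

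Over the 9 libraries, the genes whose expression relative to the WT mean was most like that of Gfap were sought among the 14452 genes tested in all 3 comparisons, by the root mean square difference of log2 CPM. The nearest were Fblim1, Rhoj, Tnfrsf1a, Pcolce and Slc6a2, with differences of 0.27 to 0.30. Tnfrsf1a encodes a receptor of tumour necrosis factor, Rhoj a small GTPase, Pcolce an enhancer of procollagen processing, Slc6a2 the noradrenaline transporter and Fblim1 a protein of cell adhesions. Slc6a2, the one of these 5 that passed between the rd10 groups, had 1.56 ± 0.347 CPM (SD, n = 3) in WT, 10.3 ± 0.463 with NS and 16.4 ± 0.574 with MSC-EVs, a log2 change of 0.68 against NS (edgeR adjusted p = 0.0261). The call of Slc6a2 was lost without NS replicate 2 or 3 or MSC-EVs replicate 1, with a log2 change of 0.64 to 0.70 whichever library was left out. Among the 8 genes themselves, the nearest to Gfap was Cd44 with a difference of 0.46, Vim and Nes were nearest to each other with 0.44, and Lcn2 and Serpina3n to each other with 0.51. S100a6 was nearest to Cd44, and A2m to S100a6.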

How the data were processed

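RNA-seq libraries of mouse retinas were put in the WT, NS and MSC-EVs groups by their labels. The table deposited by the authors held an estimated count per gene and library, not scaled to depth, and a deposited FPKM value, in which the authors had divided by transcript length and sequencing depth. The submitters' processing notes name fastp, Bowtie2, HISAT2, StringTie 1.3.1 and RSEM without their roles; the genome build is not given in the sources used here. Estimated counts carried decimals in 9.16% to 11.7% of genes and were rounded. Library totals of 19491717 to 62532343 set the counting precision.

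With edgeR 4.0.16 in R 4.3.3, groups were compared in pairs, 6 libraries at a time: filterByExpr, TMM, robust glmQLFit and glmQLFTest. The design assumed counts; rounded estimated counts took their place. Standard errors are the absolute log2 fold change divided by the square root of F, and intervals use the test's degrees of freedom. Shared letters and positions came from GENCODE M21. Alternatives were DESeq2 1.42.0, limma 3.58.1 on log2(FPKM + 1) or log2(FPKM + 0.1) with genes of at least 1 FPKM in 3 libraries, other filters and scalings, a replicate block, all 9 libraries in one fit, Y-linked expression as a covariate, and each library left out in turn; MSC-EVs replicate 3 alone against NS or WT was added after seeing the data. The tests were tried on simulated data.

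The members and gene lists were chosen with earlier results of these data known. Genes were named by a rule: every member in every library, from other lists up to 4 genes with the largest absolute log2 fold change, or fewer, and the 5 nearest to Gfap. Fgf2, Lifr, Stat3 and Glul against WT were named after their values were seen. The neutrophil genes were named outside the rule. Clcf1 is on the A2 and signalling lists, and S100a10 on the A2 and S100 lists. Replicates differed by more than counting noise, so no library was a copy of another.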

Additional observations from a re-analysis of the deposited data

How the results depend on the processing

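Against WT, all 8 reactive gliosis genes passed the test with the same direction under every alternative run, in NS-treated and in MSC-EVs-treated rd10. The number differentially expressed in NS-treated rd10 fell from 8 to 7 with limma on log2(FPKM + 1), with or without a filter, where Nes had 0.85, and to 6 when scaled to Müller glia marker counts, where Vim had 0.997 and Nes 0.899. These moved the median of all genes in that comparison from 0.01 to 0.14 (limma with its filter) and -0.32. Between the rd10 groups none was differentially expressed under any alternative run, and the number passing, 1 for edgeR, was 4 with DESeq2's Wald test, 3 with all 9 libraries in one fit or when scaled to Müller glia marker counts, 2 with limma on log2(FPKM + 1) or log2(FPKM + 0.1), and 0 with limma without a filter, with the Y-linked covariate or with MSC-EVs replicate 3 alone. Leaving out 1 library gave 0 to 2: 0 where NS 2, NS 3 or MSC-EVs 1 was dropped, 1 where NS 1 or MSC-EVs 2 was, and 2 where MSC-EVs 3 was. As higher between the rd10 groups, 0.914% of all genes passed with edgeR and 4.73% with DESeq2. Under the other settings, and for the alternatives against WT, that share was not counted. These numbers therefore cannot be read as particular to the 8 genes. Cd44 kept its call in 10 of 18 alternatives. Directions turned for genes that did not pass. Vim was 0.32 when scaled to Müller glia marker counts and -0.076 to 0.078 with 1 library dropped. Lcn2 was -0.73 with the Y-linked covariate and -0.72 with MSC-EVs replicate 3 alone, fits that rest in effect on the same MSC-EVs library. S100a6 was -0.28 and -0.27 in these, and -0.17 to 0.41 with 1 library dropped. Fblim1 was -0.25 in both. The cause was not tested. Each of the 8 genes had at least 51 counts in every library, and 34350 at most.

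Same-numbered libraries deviated together with correlations of -0.0775 to 0.267. Between the rd10 groups the correlations were 0.0843, 0.208 and 0.267, and each library was closest to its own number. That held also between MSC-EVs-treated rd10 and WT, with correlations of 0.0771, 0.0274 and 0.0212. Whether the numbers pair the samples is not labelled and was not settled, and the main fits took no pairing. With a replicate block, 2 of the 8 genes, Serpina3n and A2m, passed between the rd10 groups, and Cd44 had an adjusted p of 0.0656. All 8 passed against WT with the block. The share of all genes that passed with the block was not counted.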
